A study of Mus musculus with 244 samples.

Results

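The genes described here are 9 genes for secreted growth factors, read in single macrophages of the mouse aortic arch: Igf1, Tgfb1, Pdgfa, Pdgfb, Pdgfc, Hbegf, Areg, Osm and Grn. They were taken by symbol from a table of 24475 genes, and all 9 were found there. They were chosen by measured values of these same cells, the difference in level between the groups among them, so the levels below are a description and carry no test.

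Baseline cells came from the diseased arches of Apoe-/- mice, which lack the lipoprotein component apolipoprotein E, after 16 weeks of high-fat feeding. For the regression group, arches of such donors were placed in chow-fed WT hosts, and the tissue was taken on day 3. Both groups were sorted for CD45, CD11b and F4/80, and each library holds 1 cell. Apoe itself was listed in 9 of 125 baseline cells (7.20%, mean log2 level 0.30 ± 1.11) and 112 of 113 regression cells (99.1%, mean 11.9 ± 2.81). The labels do not say whether a regression cell came from the donor arch or from the host. Host genotype, surgery, diet and origin of the cells all go with the group and cannot be told apart. The labels give no age, sex or number of mice. Each group therefore counts as 1 sample, and every SD below is a spread over cells.

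After 3 pairs of near-identical baseline libraries were averaged (numbers 57 and 58, 64 and 65, 70 and 71; correlation of log2 values 0.992 to 0.997, the next highest pair being at 0.624), 125 baseline and 113 regression cells with at least 1000 genes remained. Levels are given as log2(RPKM + 1), where RPKM is reads scaled to transcript length and library size, so genes can be compared per length. A gene is called listed in a cell at RPKM of 1 or more. The median cell listed 2491 genes at baseline and 2360 in regression, and 3 or more of 9 macrophage markers were listed in 124 of 125 and 113 of 113 cells. Sample numbers fall into 5 stretches of 1 group each: baseline cells 21 to 92 and 112 to 167, and regression cells 1 to 20, 93 to 111 and 168 to 244. A stretch is known only by these numbers, and no stretch holds both groups. Differences were also computed for each of the 6 pairings of a regression and a baseline stretch.

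Macrophages send growth signals to the smooth muscle, endothelial and other cells of the artery wall. Insulin-like growth factor 1 (Igf1) acts through a receptor tyrosine kinase on growth and survival. Platelet-derived growth factors draw smooth muscle cells and fibroblasts and make them divide. Transforming growth factor beta 1 (Tgfb1) is secreted in a latent form and drives matrix production. Heparin-binding EGF-like growth factor (Hbegf) and amphiregulin (Areg) are shed ligands of the EGF receptor. Oncostatin M (Osm) is a cytokine of the interleukin 6 family, and progranulin (Grn) is a secreted and lysosomal glycoprotein.

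Igf1 was common in baseline cells and scarce in regression cells, Osm had the opposite pattern, and Grn was abundant in both groups. Over cells, the mean of 6 of the 9 genes was lower in regression and that of 3 was higher. Only Igf1 was lower by 1 or more on the log2 scale, and only Osm was higher by 1 or more. Of the 9299 genes found in 5% or more of either group's cells, 52.8% had the lower and 47.2% the higher mean in regression, 3.17% were lower by 1 or more, 2.43% were higher by 1 or more and 5.6% differed by 1 or more in either direction. Of the 9 genes, 8 passed that filter and Hbegf did not. The median difference over all 9 genes was -0.08, beside -0.02 over the 9299 genes.

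**Figure D1:**
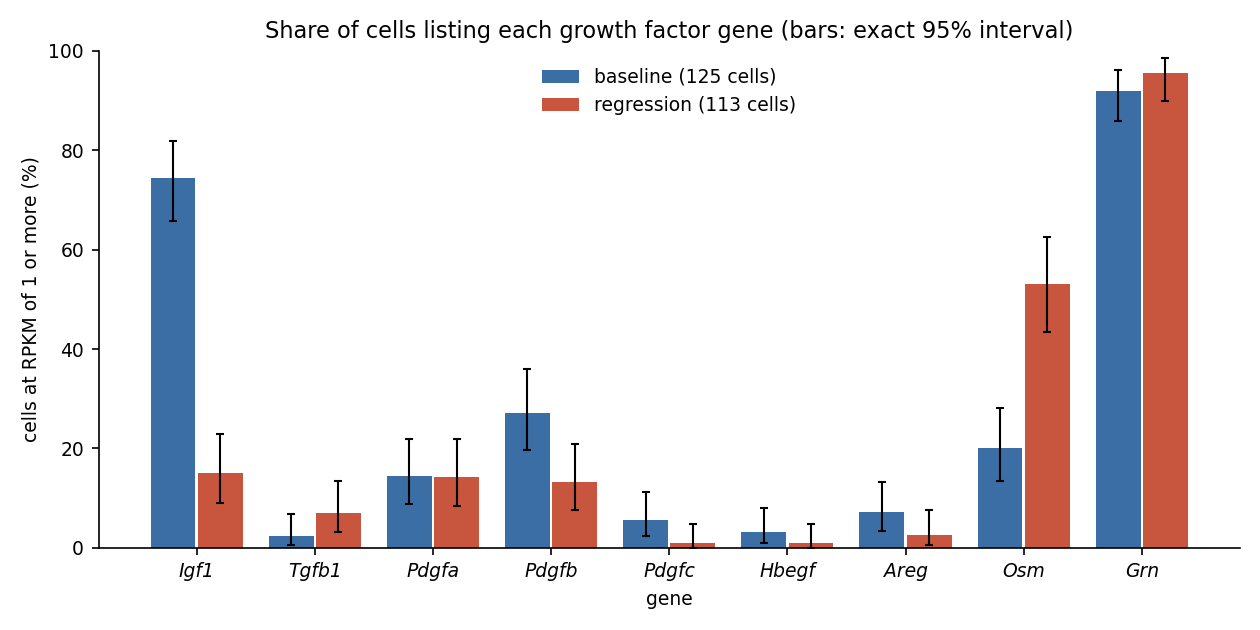
Share of cells (vertical axis, percent) that listed each of the 9 genes (horizontal axis) at RPKM of 1 or more, in baseline (blue, 125 cells) and regression (red, 113 cells), with exact 95% intervals that cover counting error only. Igf1 stands at 74.4% and 15.0% and Osm at 20.0% and 53.1%, while both Grn bars are above 90%.

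The order of the genes by mean level differed between the groups at its second place and at several places below it. At baseline, the means were 7.12 ± 2.75 for Grn, 5.26 ± 3.68 for Igf1, 1.47 ± 2.61 for Pdgfb, 0.97 ± 2.18 for Osm and 0.64 ± 1.71 for Pdgfa (SD over 125 cells). Areg (0.40), Pdgfc (0.27), Tgfb1 (0.11) and Hbegf (0.10) followed. The gap between Igf1 and Pdgfb was larger than the SD of either gene, and every other gap between neighbours was smaller. In regression, Grn (7.52 ± 2.55) was followed by Osm (2.74 ± 3.16), Igf1 (0.77 ± 2.03), Pdgfb (0.74 ± 2.01) and Pdgfa (0.64 ± 1.72; SD over 113 cells). Tgfb1 (0.21), Areg (0.12), Pdgfc (0.03) and Hbegf (0.01) came after these. There, only the gap between Grn and Osm was larger than the SDs of its 2 genes.

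Igf1 (gene 16000, chromosome 10, 87858265 to 87937042, plus strand, mm10) ranged from 0 to 10.98 over baseline cells, with a median of 6.51. In regression cells it ranged from 0 to 8.42, with a median of 0. The groups overlapped, but 29 of 125 baseline cells lay above the highest regression cell. Counts of listing cells were 93 of 125 at baseline (74.4%, CI 65.8 to 81.8%) and 17 of 113 in regression (15.0%, CI 9.01 to 23.0%). These confidence intervals (CI) are exact 95% binomial intervals and cover counting error only. The difference in mean log2 level, regression minus baseline, was -4.50.

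The level of Igf1 was also lower in the regression cells that did list it. Among listing cells, the median RPKM was 195.1 at baseline and 51.7 in regression. An RPKM of 100 or more was reached by 58 baseline cells (46.4%) and 5 regression cells (4.42%). Within baseline, the lower quartile was 0.99 and the upper quartile 8.28 on the log2 scale, so cells of the same group differed widely.

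Baseline stretches were alike in Igf1, and shares in the regression stretches ran from 0% to 21.3%, with overlapping intervals. Of cells 21 to 92, 53 of 69 listed it (76.8%), as did 40 of 56 cells 112 to 167 (71.4%), with mean log2 levels of 5.13 and 5.44. Among regression cells, 0 of 20 cells 1 to 20 listed it (3 cells would be 15.0%, and the exact CI ends at 16.8%). Of cells 93 to 111, 1 of 18 did (5.56%, CI 0.14 to 27.3%). The other 16 listing cells were among the 75 cells 168 to 244 (21.3%, CI 12.7 to 32.3%). The mean was lower in regression in 6 of 6 stretch pairings, from -5.44 to -4.07; among the 9299 genes, 16.4% were lower in 6 of 6 and 9.56% were higher in 6 of 6. Without cells 168 to 244, Igf1 was listed in 1 of 38 regression cells (2.63%) and the difference was -5.07.

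The number of genes listed per cell moved with Igf1. Baseline cells that listed Igf1 had a median of 2647 genes and those that did not had 2015.5. In regression, the medians were 3203 and 2316 genes. In cells with 1500 to 3500 genes, Igf1 shares were 74.8% at baseline and 12.5% in regression, and the difference was -4.72. Fibroblasts also make IGF-1; 2 baseline cells and 0 regression cells listed 2 or more of 6 fibroblast markers, whose summed RPKM ran from 0 to 746.0 and from 0 to 3.00, and Pdgfra was at 0 throughout. Both of these baseline cells listed Igf1, as did 91 of the other 123 (74.0%). Of 6 markers of classical monocytes, 2 or more were listed in 82 baseline and 94 regression cells, with median summed RPKM of 378.2 and 498.7. At baseline, Igf1 was listed in 64.6% of cells with 2 or more of these monocyte markers (53 of 82, CI 53.3 to 74.9%) and in 93.0% of the others (40 of 43, CI 80.9 to 98.5%). In regression, the shares were 13.8% (13 of 94, CI 7.57 to 22.5%) and 21.1% (4 of 19, CI 6.05 to 45.6%). Between groups, Igf1 shares were thus lower in regression both among cells with 2 or more of these markers and among the rest.

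**Figure D2:**
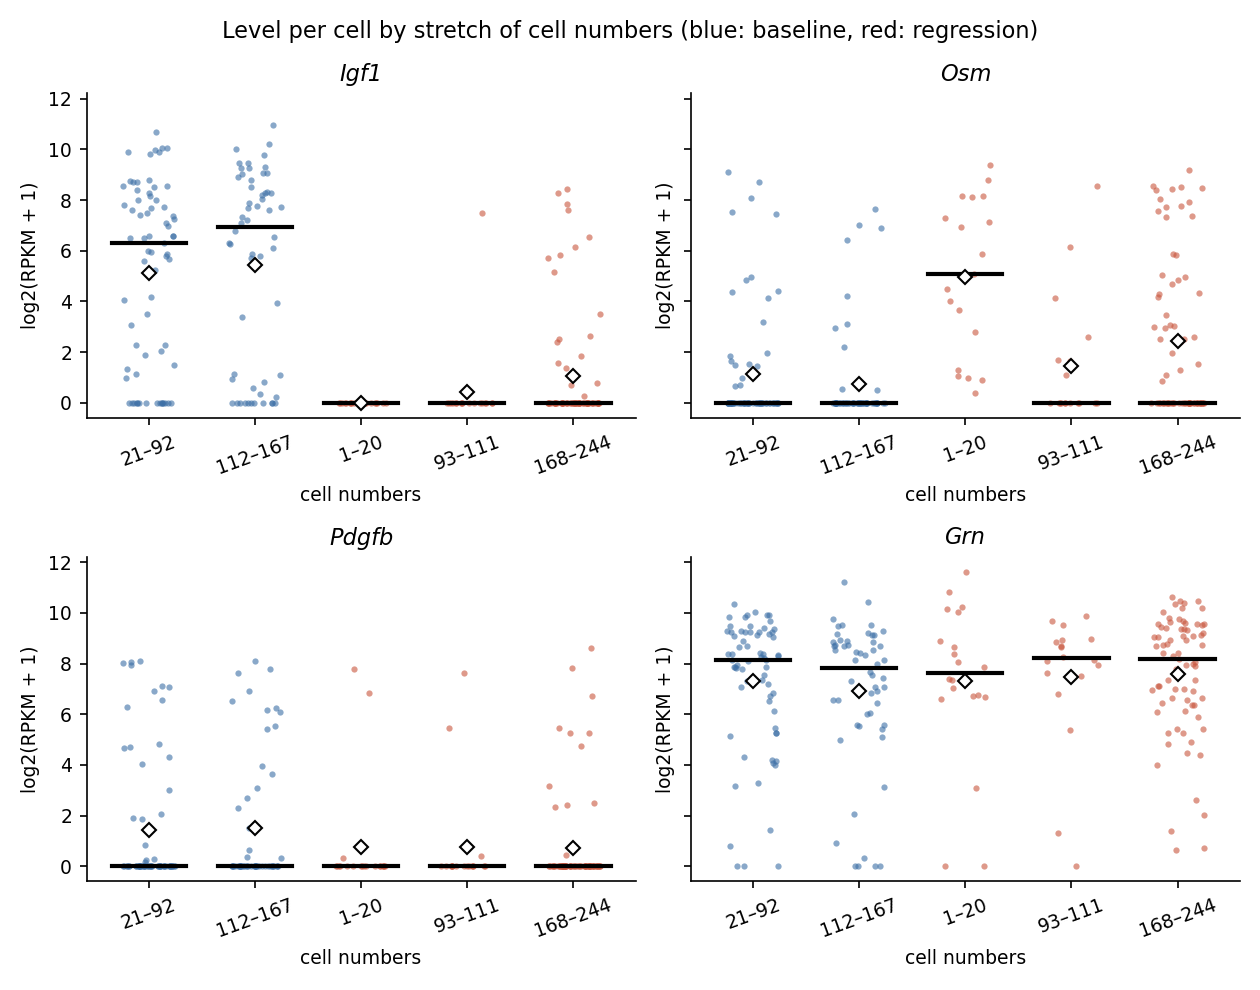
Level of Igf1, Osm, Pdgfb and Grn in each cell (points, log2(RPKM + 1)) by stretch of cell numbers, with baseline in blue and regression in red; black lines are medians and white diamonds are means. Igf1 medians lie above 6 in both baseline stretches and at 0 in the 3 regression stretches, and the Osm median is above 0 only among regression cells 1 to 20.

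Igf1 at baseline went with some genes of plaque macrophages and not with others. It was listed in 81 of 101 baseline cells with Trem2, a lipid-sensing receptor of foam cells (80.2%, CI 71.1 to 87.5%), and in 12 of 24 cells without it (50.0%, CI 29.1 to 70.9%). Among baseline cells with the tetraspanin gene Cd81 the share was 79.3% (88 of 111), and without it 35.7% (5 of 14, CI 12.8 to 64.9%). For the chemokine receptor gene Ccr2, found on monocyte-derived cells, the shares were 70.0% (63 of 90) with it and 85.7% (30 of 35) without it, with overlapping intervals. The shares with and without the gene were 73.7% and 75.0% for Retnla, 73.2% and 75.0% for Lyve1, and 73.4% and 75.4% for Fn1. Cells with Trem2 had a median of 2536 genes and cells without it 2205.5, and cells with and without Cd81 had 2530 and 2058. The part of this in the shares was not tested. In cells 21 to 92, Igf1 shares with and without the gene were 82.7% and 58.8% for Trem2 and 79.0% and 57.1% for Cd81. Both pairs of intervals overlapped. In cells 112 to 167, they were 77.6% and 28.6% for Trem2, with overlapping intervals, and 79.6% and 14.3% for Cd81, with intervals apart.

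The few regression cells with Igf1 mostly listed Trem2 and the mannose receptor gene Mrc1 as well. Igf1 was listed in 16 of 83 regression cells with Trem2 (19.3%, CI 11.4 to 29.4%). Without Trem2, 1 of 30 listed it (3.33%, CI 0.08 to 17.2%). With Mrc1 it was listed in 16 of 82 cells (19.5%, CI 11.6 to 29.7%). Without Mrc1, 1 of 31 listed it (3.23%, CI 0.08 to 16.7%). For both genes the intervals overlap. Of all regression cells, 73.5% listed Trem2 and 72.6% listed Mrc1. Cells 1 to 20, none of which listed Igf1, listed Trem2 in 10 of 20 cases. With Folr2, a folate receptor gene of resident macrophages, the share was 26.5% (9 of 34, CI 12.9 to 44.4%), and without it 10.1% (8 of 79, CI 4.47 to 19.0%). Those regression cells without Mrc1 had a median of 2034 genes, against 2480.5 in those with it. None of the 11 regression cells with Lyve1 listed Igf1 (3 cells would be 27.3%, and the exact CI ends at 28.5%). All 17 regression cells with Igf1 listed Apoe.

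**Figure D3:**
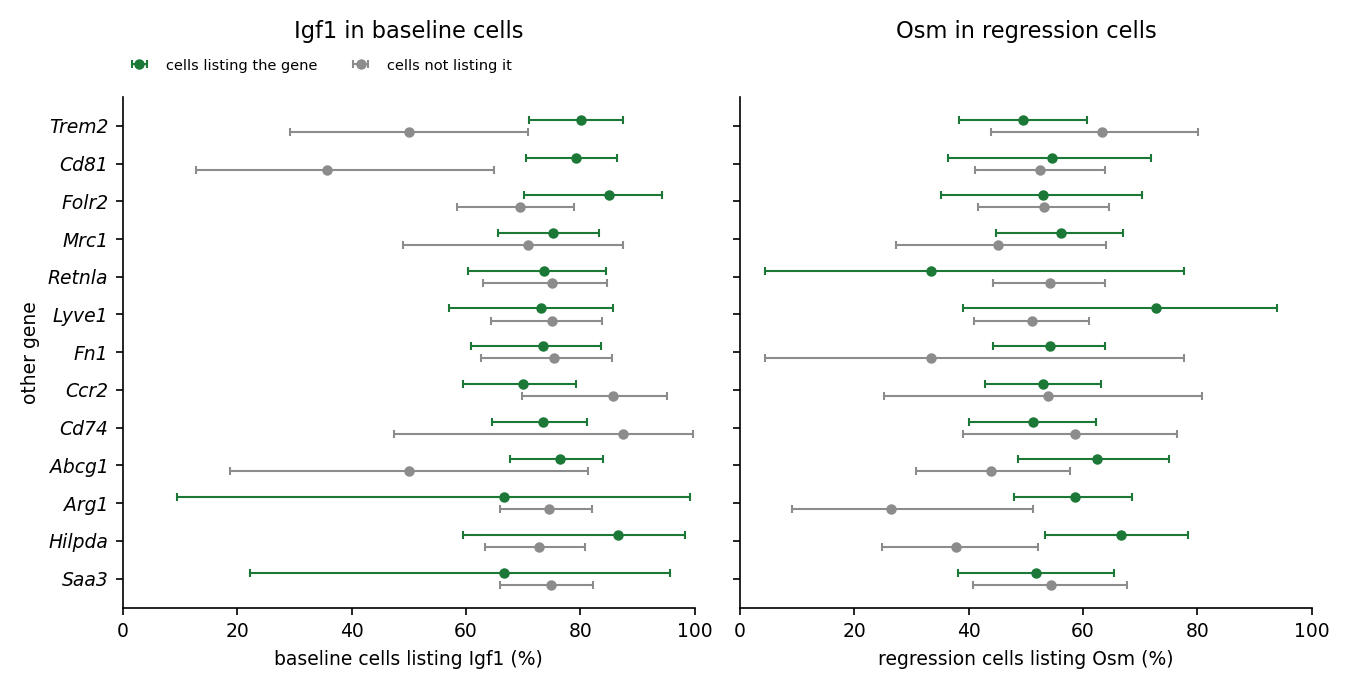
Share of baseline cells that listed Igf1 (left) and of regression cells that listed Osm (right), in percent, among cells that did (green) or did not (grey) list each of 13 other genes; bars are exact 95% intervals for counting error. Over all cells of a group, the Igf1 intervals are apart at Cd81 and narrowly at Trem2 (near ends 71.1% and 70.9%). The Osm intervals are narrowly apart at Hilpda (near ends 53.3% and 52.1%).

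The genes whose cell-to-cell pattern was most like that of Igf1 were Cd63, Ms4a7 and Stk38l. Likeness was the mean of Spearman's rho within the 2 baseline stretches (125 cells), over 3393 genes found in 25% or more of baseline cells. It was 0.55 for Cd63, a tetraspanin of late endosomes (0.54 and 0.56 in the stretches), 0.52 for Ms4a7, a membrane protein of macrophages (0.43 and 0.63), and 0.47 for the kinase gene Stk38l (0.32 and 0.66). The median over all these genes was 0.03. All 3 genes had the lower mean in regression, with differences of -1.69 for Cd63, -2.33 for Ms4a7 and -2.83 for Stk38l. Cells of a stretch share their library preparation and differ in depth, which such a correlation includes.

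None of the other IGF pathway genes past the 5% filter differed by 1 or more, and of all 9299 genes 5.6% did. Of 18 further genes fixed for this pathway, 8 passed the same 5% filter. Their mean was lower in regression for 2 and higher for 6, with a median of 0.09. The largest differences were those of the binding protein genes Igfbp4 (0.73, listed in 23.2% and 40.7% of baseline and regression cells) and Igfbp6 (0.55, 6.40% and 16.8%). Igf1r, the receptor of IGF-1, was listed in 16.8% and 14.2% of cells and differed by 0.01. Igf2r, which binds and clears IGF-2, was listed in 29.6% and 30.1% of cells.

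Among the platelet-derived growth factors, Pdgfb was the most often listed at baseline. Its level (gene 18591, chromosome 15, 79995874 to 80014977, minus strand) ranged from 0 to 8.11 at baseline and from 0 to 8.60 in regression, with medians of 0, and the groups overlapped over nearly their whole range. Listing cells numbered 34 of 125 at baseline (27.2%, CI 19.6 to 35.9%) and 15 of 113 in regression (13.3%, CI 7.62 to 20.9%), and these intervals overlap. The difference was -0.74, and the 6 pairings lay close together, from -0.79 to -0.68. In cells with at least 2000 genes it was -0.42, with 27.8% and 18.5% of cells, and with a pseudocount of 10 it was -0.34. The median RPKM among listing cells was 56.1 at baseline and 43.2 in regression. Among cells with 2 or more monocyte markers and the others, Pdgfb shares were 20.7% (CI 12.6 to 31.1%) and 39.5% (CI 25.0 to 55.6%) at baseline, and 11.7% and 21.1% in regression.

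Nearly all baseline cells with Pdgfb also listed Trem2. Pdgfb was listed in 33 of 101 baseline cells with Trem2 (32.7%, CI 23.7 to 42.7%) and 1 of 24 without it (4.17%, CI 0.11 to 21.1%). The same share, 32.7%, was found with Trem2 in each baseline stretch. In regression, the shares with and without Trem2 were 13.3% (11 of 83) and 13.3% (4 of 30). Genes most like Pdgfb at baseline were Cd9, Stk38l and Lrp1, at mean rho values of 0.37, 0.36 and 0.36. Stk38l was thus among the 3 genes for both Igf1 and Pdgfb, and Pdgfb and Igf1 themselves correlated at 0.16 over baseline cells.

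Pdgfa did not separate the groups, and Pdgfc was rare. Pdgfa (gene 18590, chromosome 5, 138976014 to 138997370, minus strand) was listed in 18 of 125 baseline cells (14.4%, CI 8.76 to 21.8%) and 16 of 113 regression cells (14.2%, CI 8.32 to 22.0%), with a difference of -0.01 and pairings from -0.79 to 0.36. None of the 18 regression cells 93 to 111 listed it (3 cells would be 16.7%, and the exact CI ends at 18.5%), and these had the fewest genes per cell (median 1892.5). Of cells 168 to 244, 13 of 75 did, and without them the difference was -0.42. An annotated gene on the other strand, 6330403L08Rik, shares 26.1% of the exon bases of Pdgfa, so that reads of the pair may not be told apart. Pdgfc (gene 54635, chromosome 3, 81036416 to 81214040, plus strand) was listed in 7 baseline cells (5.60%, CI 2.28 to 11.2%) and 1 regression cell (0.88%, CI 0.022 to 4.83%). Its highest level was 6.76 at baseline, the single listing regression cell stood at an RPKM of 1.12, and the difference was -0.24. With any RPKM above 0 counted, 6 regression cells (5.31%) held Pdgfc.

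At least 1 of the 3 PDGF genes was listed in 50 of 125 baseline cells (40.0%, CI 31.3 to 49.1%) and 27 of 113 regression cells (23.9%, CI 16.4 to 32.8%). Cells with more than 1 of them numbered 9 and 5. Pdgfra and Pdgfrb, the receptors of these ligands on fibroblasts and smooth muscle, were listed in no cell of either group. For any gene at 0 of 125 or 0 of 113 cells, here and below, 3 cells would be 2.40% and 2.65%, and the exact CI ends at 2.91% and 3.21%. Nrp1, a coreceptor of VEGF that also binds PDGF, was listed in 74.4% and 69.0% of cells and differed by -0.44. Plau, the urokinase gene, was listed in 48.0% and 32.7% of cells and differed by -0.70. Platelets carry PDGF and Tgfb1, and of their markers Itga2b and Gp9 were at 0 in all cells, and Ppbp was listed in 0% and 9.73% of cells. Summed RPKM of the 6 platelet markers ran from 0 to 213.8 at baseline and from 0 to 3146 in regression, with medians of 0. Cells with 2 or more of them numbered 0 at baseline and 1 in regression, and that cell listed none of the PDGF genes and no Tgfb1.

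Tgfb1 was seldom listed in either group. Its values (gene 21803, chromosome 7, 25687002 to 25705077, plus strand) reached RPKM of 1 or more in 3 of 125 baseline cells (2.40%, CI 0.50 to 6.85%) and 8 of 113 regression cells (7.08%, CI 3.11 to 13.5%). Of the 8, 4 were among the 20 cells 1 to 20 and 4 among cells 168 to 244. The difference was 0.10, with pairings from -0.14 to 0.46, but the log2 ratio of mean RPKM had the opposite sign (-1.91). A single baseline cell at 8.08 on the log2 scale lay above all regression cells, whose highest value was 4.43. Median RPKM in listing cells was 3.63 and 5.56.

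Several genes that release, receive or answer TGF-beta were listed in many cells, while others, such as Ltbp1 (0.80% and 0.88%) and Lrrc32 (1.60% and 0.88%), were listed in fewer cells than Tgfb1. Of 25 further genes of this list, 19 passed the 5% filter. Their mean was lower in regression for 10 and higher for 9, with 1 lower and 1 higher by 1 or more and a median of -0.03. Over all 9299 genes, 3.17% were lower and 2.43% higher by 1 or more. Tgfbr1, the type I receptor, was found in 82 baseline cells (65.6%) and 39 regression cells (34.5%), with means of 3.58 and 1.73, and was lower in 6 of 6 pairings. Tgfbr2, the type II receptor, differed by -0.47 (59.2% and 54.9% of cells). Thbs1, which encodes a matrix glycoprotein able to activate latent TGF-beta, differed by 7.22. Nrros, which holds latent TGF-beta on myeloid cells, was listed in 60.0% and 71.7% of cells and differed by 0.80. Tgfbi, a matrix protein gene induced by TGF-beta, differed by 0.67 and was listed in 86.4% and 91.2% of cells.

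The EGF receptor ligands Areg and Hbegf were each listed in few cells. Areg (gene 11839, chromosome 5, 91139599 to 91148432, plus strand) was listed in 9 baseline cells (7.20%, CI 3.34 to 13.2%) and 3 regression cells (2.65%, CI 0.55 to 7.56%), with a difference of -0.28 and a lower mean in 5 of 6 pairings. Its highest baseline cell stood at an RPKM of 923.8, which was far above the other group's highest of 49.6. Hbegf (gene 15200, chromosome 18, 36504927 to 36515805, minus strand) was listed in 4 baseline cells (3.20%, CI 0.88 to 7.99%) and 1 regression cell (0.88%), with a difference of -0.08. Either ligand was listed in 13 baseline cells (10.4%, CI 5.65 to 17.1%) and 4 regression cells (3.54%, CI 0.97 to 8.82%), with overlapping intervals. Mast cells and basophils can make amphiregulin, and all 6 of their markers were at 0 at baseline. In regression, Cpa3, Mcpt4, Cma1 and Tpsb2 were at 0, Fcer1a was listed in 0.88% of cells, Ms4a2 stayed under the listing threshold, and the summed RPKM of the 6 reached at most 1.35.

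Of 14 further genes of the EGF family list, 5 passed the 5% filter, 2 with the lower and 3 with the higher mean in regression, and a median of 0.10. Cd9, a tetraspanin that binds the membrane form of HB-EGF, was lower by 1 or more (-2.60, listed in 86.4% and 69.9% of cells), as were 3.17% of all 9299 genes. The sheddase genes Adam10 and Adam17, which release these ligands, differed by 0.74 and 0.10. Egfr, the receptor, was listed in 3 baseline and 0 regression cells, and Erbb2, Erbb3 and Erbb4 in no cell of either group.

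Osm was the only one of the 9 genes with a mean higher by 1 or more in regression. Its values (gene 18413, chromosome 11, 4236420 to 4241026, plus strand) ranged from 0 to 9.11 at baseline, with a median of 0, and from 0 to 9.39 in regression, with a median of 1.30. The groups overlapped over nearly the whole range, and 2 regression cells exceeded every baseline cell. Osm was present in 25 of 125 baseline cells (20.0%, CI 13.4 to 28.1%) and 60 of 113 regression cells (53.1%, CI 43.5 to 62.5%), and the difference was 1.77. An RPKM of 100 or more was reached by 8 baseline cells (6.40%) and 22 regression cells (19.5%), while the median RPKM among listing cells was 20.0 and 28.8.

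The size of this difference depended on the stretch. Osm was listed in 17 of 20 cells 1 to 20 (85.0%, CI 62.1 to 96.8%), 7 of 18 cells 93 to 111 (38.9%, CI 17.3 to 64.3%) and 36 of 75 cells 168 to 244 (48.0%, CI 36.3 to 59.8%). At baseline, it was listed in 17 of 69 cells 21 to 92 (24.6%) and 8 of 56 cells 112 to 167 (14.3%). The mean was higher in regression in 6 of 6 pairings, from 0.29 to 4.24. Both of the highest pairings, 3.84 and 4.24, used cells 1 to 20, without which the difference was 1.29. Cells 93 to 111 against cells 21 to 92 gave the lowest value. With a pseudocount of 10 the difference was 0.89.

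**Figure D4:**
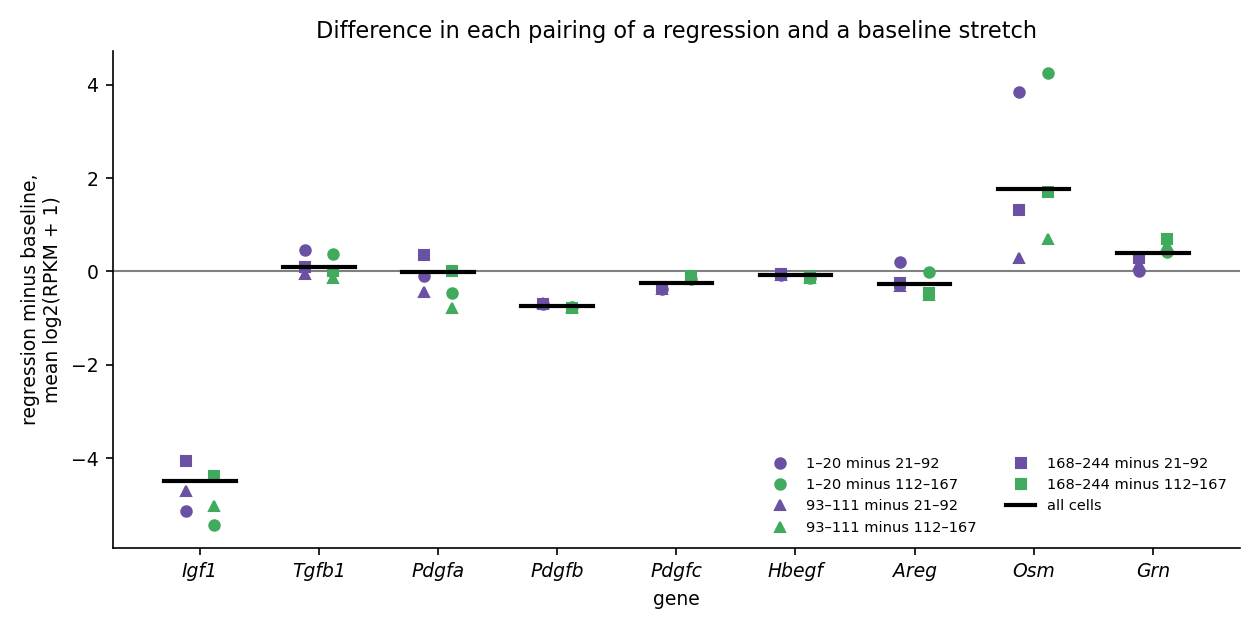
Difference in mean log2(RPKM + 1), regression minus baseline (vertical axis), for each of the 9 genes in the 6 pairings of a regression with a baseline stretch (symbols) and over all cells (black lines). The Igf1 pairings lie between -5.44 and -4.07, those of Osm spread from 0.29 to 4.24, and those of Pdgfb between -0.79 and -0.68.

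Within regression, the share of cells with Osm was higher among those with Hilpda than among those without it, except in cells 1 to 20. Osm-listing cells made up 40 of 60 regression cells with Hilpda, a hypoxia-inducible lipid droplet gene (66.7%, CI 53.3 to 78.3%), and 20 of 53 without it (37.7%, CI 24.8 to 52.1%). By stretch, the shares with and without Hilpda were 84.6% and 85.7% in cells 1 to 20, 75.0% and 10.0% in cells 93 to 111, and 59.0% and 36.1% in cells 168 to 244. With Arg1, the arginase gene, it was listed in 55 of 94 cells (58.5%, CI 47.9 to 68.6%), and without it in 5 of 19 (26.3%, CI 9.15 to 51.2%). For Abcg1, Osm shares were 62.5% with it (35 of 56, CI 48.5 to 75.1%) and 43.9% without it (25 of 57, CI 30.7 to 57.6%). By stretch, the Abcg1 shares were 80.0% and 90.0% in cells 1 to 20, 37.5% and 40.0% in cells 93 to 111, and 63.2% and 32.4% in cells 168 to 244. Median gene numbers were 2473 and 2262 with and without Hilpda, 2434 and 1866 with and without Arg1, and 2420.5 and 2213 with and without Abcg1. Cells with and without the acute-phase gene Saa3 had shares of 51.8% and 54.4%, and those with and without Ccr2 53.0% and 53.8%.

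The genes most like Osm over regression cells were Slc2a1, Cd24a and Emc1, among 3312 genes found in 25% or more of them. Mean rho over the 3 regression stretches was 0.41 for Slc2a1, the glucose transporter GLUT1 (0.32 to 0.78), 0.39 for the surface protein gene Cd24a (0.22 to 0.45) and 0.36 for Emc1, a subunit of a membrane insertion complex (0.35 to 0.39). The differences between the groups were 0.69 for Slc2a1, 0.99 for Cd24a and -0.33 for Emc1. These values are weak, and the stretches hold 20, 18 and 75 cells.

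Neutrophils also make oncostatin M, and some of their markers moved with the group. Cells with 2 or more of 6 neutrophil markers numbered 28 at baseline and 45 in regression. The summed RPKM of the 6 markers had a median of 3.57 (0 to 17711) at baseline and 13.7 (0 to 29863) in regression. Differences were 1.21 for S100a8, 0.84 for Csf3r, 0.38 for S100a9, 0.02 for Cxcr2, 0.01 for Mmp8 and -0.07 for Retnlg. S100a8 was listed in 8.80% and 23.9% of baseline and regression cells, S100a9 in 6.40% and 16.8%, and Csf3r in 32.8% and 46.9%. Retnlg was listed in 0.80% of baseline cells and was at 0 in all regression cells. Osm was listed in 28 of the 45 such regression cells (62.2%) and 32 of the other 68 (47.1%), and at baseline in 4 of 28 (14.3%) and 21 of 97 (21.6%). Without the cells that listed 2 or more of these markers, the difference of Osm was 1.48.

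Of 12 further genes of the oncostatin M and interleukin 6 list, 9 passed the 5% filter, 6 with the lower and 3 with the higher mean in regression, and a median of -0.04. Lifr, a receptor chain that mouse oncostatin M can use, was lower by 1 or more (-1.57, listed in 60.0% and 30.1% of cells). The signalling kinase gene Jak1 was too (-1.10, 85.6% and 69.9%), but its log2 ratio of mean RPKM had the opposite sign (0.10). Of all 9299 genes, 3.17% were lower by 1 or more. Osmr, the specific receptor chain, was listed in no cell, and Il6st, the shared chain gp130, in 10.4% and 7.96% of cells. Socs3, a feedback inhibitor of this pathway, differed by 0.06, and Il6 was listed in 4.00% and 7.96% of cells.

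Grn was the most abundant of the 9 genes in both groups. Its level (gene 14824, chromosome 11, 102430315 to 102437048, plus strand) ranged from 0 to 11.23 at baseline, with a median of 8.14, and from 0 to 11.62 in regression, with a median of 8.11. Nearly all cells listed it, 115 of 125 at baseline (92.0%, CI 85.8 to 96.1%) and 108 of 113 in regression (95.6%, CI 90.0 to 98.5%). The groups overlapped over nearly their whole range. The difference was 0.40, smaller than either SD, and it was above 0 in 6 of 6 pairings (0.02 to 0.69). In cells with at least 2000 genes it was 0.13. Cells that did not list Grn had few genes: medians were 1832 genes in the 10 baseline cells and 1818 in the 5 regression cells, against 2582 and 2388.5 in the listing cells.

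Of the 13 further genes of the progranulin list, 5 differed by 1 or more, and of all 9299 genes 5.6% did. The 2 shares are not of like genes, as the list was chosen with earlier results of these data known. Some of its genes, such as Ctsb (100% of both groups) and Psap (98.4% and 96.5%), were listed in nearly all cells, and the scale understates differences of low genes. All 13 passed the 5% filter, 4 with the lower and 9 with the higher mean in regression, and a median of 0.29. Higher by 1 or more were the lysosomal protease genes Ctsl (3.48) and Ctsd (2.10), the membrane protease gene Mmp14 (1.49) and Slpi, an inhibitor that shields progranulin from cleavage (2.66, listed in 9.60% and 38.9% of cells). The mean of Mmp14 was higher in 5 of the 6 stretch pairings and lower in 1. The elastase gene Mmp12 was lower by 1 or more (-1.82). Psap, the prosaposin gene, whose product takes progranulin to lysosomes, differed by 0.14, and the sorting receptor gene Sort1 by 0.29. The gene most like Grn over the 238 cells of all 5 stretches was Ctsb, a lysosomal protease gene, at a mean rho of 0.31. Tmem106a (0.29) and Hsd17b4 (0.26) came next, and their values went from -0.01 to 0.72 between stretches.

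Few cells listed more than 2 of the genes together. Apart from Grn, baseline cells listed none of the other 8 genes in 19 of 125 cases (15.2%), 1 in 43, 2 in 44, 3 in 15 and more than 3 in 4. Of the regression cells, 31 of 113 (27.4%) listed none, 52 listed 1, 24 listed 2, 4 listed 3 and 2 more than 3. Igf1 and Osm were both listed in 22 baseline cells (17.6%, CI 11.4 to 25.4%), against 18.6 cells from the product of their shares. In regression, both were listed in 6 cells (5.31%, CI 1.97 to 11.2%), against 9.03 from the product.

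At baseline, most cells that listed Osm also listed Igf1, and in regression most did not. Igf1 was listed in 22 of 25 baseline cells with Osm (88.0%, CI 68.8 to 97.5%) and 71 of 100 without it (71.0%, CI 61.1 to 79.6%). In regression, it was listed in 6 of 60 cells with Osm (10.0%, CI 3.76 to 20.5%) and 11 of 53 without it (20.8%, CI 10.8 to 34.1%). The intervals overlap within each group. Spearman's rho between Igf1 and Osm over cells was 0.14 at baseline and -0.10 in regression. Osm without Igf1 was found in 3 baseline cells (2.40%, CI 0.50 to 6.85%) and 54 regression cells (47.8%, CI 38.3 to 57.4%), and Igf1 without Osm in 71 (56.8%) and 11 (9.73%). All 6 regression cells with both genes were among cells 168 to 244.

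**Figure D5:**
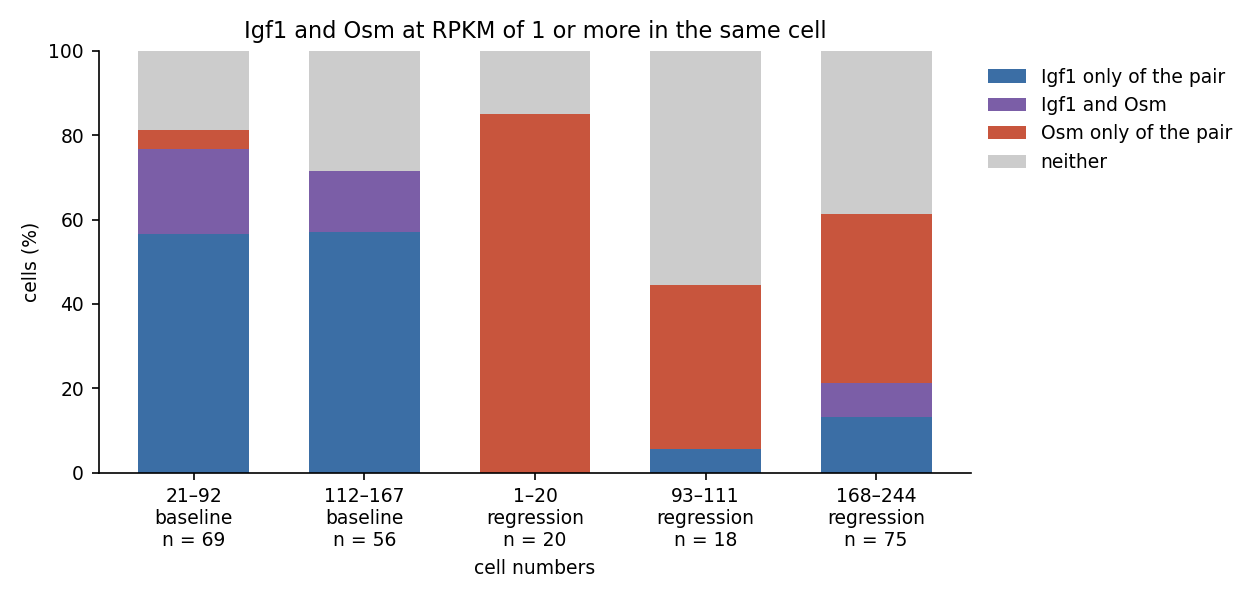
Cells of each stretch (percent, stacked to 100) by whether they listed Igf1 only, Osm only, both or neither of the pair at RPKM of 1 or more. Igf1 without Osm makes up 56.5% and 57.1% of the baseline stretches, and Osm without Igf1 makes up 85.0%, 38.9% and 40.0% of the regression stretches.

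Other pairs rested on few cells. Pdgfb and Igf1 were both listed in 28 baseline cells, against 25.3 from the product of their shares, and in 4 regression cells, against 2.26. Pdgfa and Osm were both listed in 12 regression cells, against 8.50, and Pdgfa was listed in 20.0% of regression cells with Osm (CI 10.8 to 32.3%) and 7.55% without it (CI 2.09 to 18.2%). No baseline cell listed Pdgfb together with Areg or Hbegf. Of the 9 baseline cells with Areg, 7 listed Igf1 and 4 listed Osm, and all 3 regression cells with Areg listed Osm.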

How the data were processed

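Per the labels' protocols, cells were caught 1 by 1 on a C1 circuit, a SMARTer Ultra Low kit copied their RNA, and Nextera XT made the libraries; these protocols name islet cells, whereas the other labels name macrophages. The authors deposited 1 table of RPKM values for 24475 genes and 244 libraries. The submitters' processing notes name mm10, CASAVA 1.8.2 and FastQC. Aligner, strand use and annotation: not given in the sources used here. Such libraries hold no molecular identifiers, and noise from amplification enters every value.

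Columns were matched to samples by title number. Libraries correlating above 0.9 were averaged, and cells with under 1000 genes at RPKM of 1 or more (3 of 116 regression, 0 of 125 baseline) were left out. Because RPKM values are normalized, count models were not applied. A difference is the regression mean of log2(RPKM + 1) minus the baseline mean. This scale understates differences of low genes. The labels name no animal, so no p-value is given. A share of 0 is set against the share that 3 cells would be and the end of the exact interval. Depth estimates came from the RPKM worth of 1 read at low values of 5727 genes with 1 GENCODE vM21 transcript. It ran from 0.41 to 8.07 M reads (median 1.11) in 66 baseline libraries and from 0.39 to 3.49 M (median 0.995) in 58 regression libraries where estimates from 2 separate gene sets differed by under 10%. Doublets were not called. Positions are from GENCODE vM21.

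The 9 genes and the 7 pathway lists were chosen with earlier results of these data known. Named are the 9 genes, the 3 genes most like each of those found in 25% or more of either group's cells, for each list the 2 further genes that differed most, and 14 genes fixed by name. Other list genes serve as examples and were picked with their values in view. The computation was tested on simulated data. Of 24475 genes, 200 were changed between resampled baseline cells, and 191 of these had the right sign. Of 3319 unchanged genes, 21 differed by 1 or more. The changed and the unchanged genes were all listed in 25% or more of baseline cells. Of the 9 genes, only Igf1, Pdgfb and Grn reached this share, so these counts do not cover the others. Both sides of this comparison were baseline cells. How often unchanged genes differ by 1 or more between stretches, between mice or between baseline and regression cells was not tested. Alternatives covered the pseudocount, scaling, cell filters, the listing threshold, near-identical libraries and each stretch. Python 3.11.15, numpy 2.4.6, scipy 1.17.1, pandas 2.3.3 and matplotlib 3.10.9 were used.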

Additional observations from a re-analysis of the deposited data

How the results depend on the processing

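No paired analysis was possible because the groups share no sample numbers. Of 400 values recomputed under an alternative, 352 stayed within the spread of the stretch pairings (differences), the exact interval (shares) or 1.5 times (counts), and no difference of 1 or more changed sign. That spread was the SD of the 6 pairings, which share stretches. It was 0.05 for Pdgfb, but 1.65 for Osm, 0.41 for Pdgfa and 0.24 for Tgfb1. For Osm this is close to the difference itself, and for Pdgfa and Tgfb1 it is larger. For these 3 genes, a value within the limit can thus lie far from the main one. The 352 include shares that could not change, such as those of a group when a stretch of the other group was left out. Baseline shares were also fixed with no cell filter, and regression shares with all libraries kept. The sign of the difference was that given above in 14 of 14 alternatives for Igf1, Pdgfb, Pdgfc, Hbegf, Areg, Osm and Grn, in 13 of 14 for Tgfb1 and in 7 of 14 for Pdgfa. Differences with pseudocounts of 0.1 and 10 were -6.49 and -2.63 for Igf1, -1.23 and -0.34 for Pdgfb, and -0.17 and -0.029 for Hbegf; with 10, that of Pdgfc was -0.11. Log2 ratios of mean RPKM were -1.91 for Tgfb1, -0.88 for Pdgfb, -6.46 for Pdgfc, -5.04 for Hbegf and -4.15 for Areg. Rescaling each cell to a sum of 1000000 gave -0.84 for Pdgfb. In cells with at least 2000 genes, the difference was -0.42 for Pdgfb and 0.13 for Grn, and baseline shares were 83.5% for Igf1 and 97.9% for Grn. Without cells 168 to 244, differences were -5.07 for Igf1 and -0.42 for Pdgfa, and regression shares were 2.63% for Igf1, 7.89% for Pdgfa, 0% for Pdgfc and Hbegf, and 63.2% for Osm. In cells with 1500 to 3500 genes, the regression share of Hbegf was 0%. Listed at RPKM of 10 or more, shares were 65.6% for Igf1, 0.80% for Hbegf and 12.0% for Osm at baseline, and 2.65% for Tgfb1, 0% for Pdgfc and Hbegf and 35.4% for Osm in regression; Igf1 and Osm together were in 8.80% and 1.77% of cells. Listed above 0, Pdgfc was in 5.31% of regression cells. In an alternative chosen after seeing the data, which left out cells with 2 or more neutrophil markers, differences were -0.59 for Pdgfb, -0.027 for Hbegf and 0.13 for Grn, and the regression share of Hbegf was 0%.

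Of the 9 genes, 2 were lower by 1 or more with a pseudocount of 0.1 and 5 by the ratio of mean RPKM, and 0 were higher by 1 or more with a pseudocount of 10. Of the other list genes, 8 were lower by 1 or more without cells 168 to 244, 9 with a pseudocount of 0.1, 1 with 10 and 16 under the ratio of means, while 10 were higher with a pseudocount of 0.1 and 12 under the ratio. The share of all genes past 1 was not computed under these settings, so these counts have no share to be set beside. The cause of these shifts was not tested. With 1 sample a group, nothing here shows how mice of a group vary. Intervals cover counting error only.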

Other observations

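Among 14 other secreted growth factor genes, 6 passed the 5% filter, 4 with the lower and 2 with the higher mean in regression (median -0.24). Vegfa, the angiogenic factor induced by hypoxia, was listed in 5 baseline cells (4.00%) and 64 regression cells (56.6%), with means of 0.17 and 2.81. Its mean in regression was thus close to that of Osm. Gas6, a bridging ligand for receptors of apoptotic cell uptake, had the opposite direction (-0.70, listed in 27.2% and 15.0% of cells), as did Vegfb (-0.33), Gdf15 (-0.25) and Hgf (-0.24). All 4 had the lower mean in 6 of 6 stretch pairings, as did 16.4% of the 9299 genes. They are the 4 genes of this list with the lower mean over all cells, and the pairings share stretches. Bmp2 differed by 0.20, with pairings in both directions. Csf1, the macrophage growth factor, was listed in 4 cells of each group, and Fgf2 and Vegfc in none.

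Over the 7 lists together, 63 genes besides the 9 passed the 5% filter. Of these, 31 had the lower and 32 the higher mean in regression, 5 were lower and 6 higher by 1 or more (over all 9299 genes, 3.17% and 2.43%), and the median difference was 0.01. The lists were chosen with earlier results of these data known.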
